A study of Mus musculus with 13 samples.

Results

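The creatine kinase system was described here by 7 genes of the 36109 genes listed: the cytosolic creatine kinases Ckm and Ckb, the mitochondrial creatine kinases Ckmt2 and Ckmt1, the creatine synthesis enzymes Gatm and Gamt, and the creatine transporter Slc6a8. The genes were selected on the difference between Hmox2-/- and Hmox2+/+ mice in heart tissue and in aortic endothelial cells (ECs), in particular because Ckmt1 moved in opposite ways in the 2 tissues. Their genotype differences are therefore described below without a test. RNA was sequenced in 4 whole-heart libraries of Hmox2+/+ mice (Heart WT 1 to 4) and 3 of Hmox2-/- mice (Heart KO 1 to 3), and in 3 aortic EC libraries of each genotype (EC WT 1 to 3, Hmox2+/+, and EC KO 1 to 3, Hmox2-/-). Hmox2 encodes the heme-degrading enzyme heme oxygenase 2, the Hmox2+/+ mice were littermate controls, and all mice were kept in room air. The mice used for RNA were described as young, and their sex was not given in the sources used here. Hearts were frozen and powdered whole, and EC RNA was collected by flushing TRI Reagent through the lumen of the dissected aorta, so that tissue and RNA isolation kit cannot be told apart.

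Creatine kinases move a phosphate group between ATP and creatine, so that a cell can hold a quick reserve of high-energy phosphate and pass it from mitochondria to the sites where ATP is used. Muscle-type Ckm works at the myofibrils and brain-type Ckb in many other cells, including smooth muscle and thermogenic fat, while Ckmt2 (sarcomeric) and Ckmt1 (ubiquitous) sit between the mitochondrial membranes. Creatine is made from arginine and glycine by Gatm and then by methylation through Gamt, mainly in kidney and liver, and heart muscle takes it up from blood through Slc6a8.

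The regions just before the start sites of the 4 creatine kinase genes are shown because the cytosolic forms Ckm and Ckb stood in opposite orders in heart tissue and ECs, while the mitochondrial Ckmt2 stood above Ckmt1 in hearts and in the EC libraries of Hmox2+/+ mice. The sequences are the 250 bases before the annotated start, from RefSeq on GRCm38.p6, written 5′ to 3′ along the gene. Capitals mark the E-box CANNTG, the site class of muscle basic helix-loop-helix factors, and TATAA on either strand (written TTATA on the other).
Ckm, chr7:19410844-19411093, plus strand: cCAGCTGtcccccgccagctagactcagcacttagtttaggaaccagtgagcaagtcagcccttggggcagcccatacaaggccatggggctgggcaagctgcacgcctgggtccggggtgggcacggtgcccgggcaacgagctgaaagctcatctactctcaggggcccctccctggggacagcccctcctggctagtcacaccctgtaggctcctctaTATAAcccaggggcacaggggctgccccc
Ckmt2, chr13:91876886-91877135, minus strand: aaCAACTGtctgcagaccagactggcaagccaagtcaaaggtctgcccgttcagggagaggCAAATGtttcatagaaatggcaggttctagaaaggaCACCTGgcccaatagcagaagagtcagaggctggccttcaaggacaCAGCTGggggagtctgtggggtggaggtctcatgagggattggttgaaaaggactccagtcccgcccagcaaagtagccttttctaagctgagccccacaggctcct
Ckb, chr12:111672339-111672588, minus strand: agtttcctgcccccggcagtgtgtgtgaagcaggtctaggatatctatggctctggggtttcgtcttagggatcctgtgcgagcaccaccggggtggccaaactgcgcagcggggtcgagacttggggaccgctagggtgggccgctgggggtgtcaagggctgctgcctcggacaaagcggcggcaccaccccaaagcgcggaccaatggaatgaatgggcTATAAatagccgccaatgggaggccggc
Ckmt1, chr2:121357526-121357775, plus strand: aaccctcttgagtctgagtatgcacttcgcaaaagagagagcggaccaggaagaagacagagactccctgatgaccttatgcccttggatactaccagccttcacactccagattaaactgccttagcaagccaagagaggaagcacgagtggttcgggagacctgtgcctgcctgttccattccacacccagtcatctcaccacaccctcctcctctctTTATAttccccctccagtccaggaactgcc
The E-box was found 4 times before Ckmt2, 1 time before Ckm (249 bases before the start) and not before Ckb or Ckmt1. TATAA started 29 bases before the start of Ckm, 28 before Ckb and 30 before Ckmt1, and was not found before Ckmt2. Of the 32851 windows of the same length, 66.2% held CANNTG and 22.8% held TATAA. The MEF2 site, which was searched on both strands and found in 1.69% of windows, was present before Ckb, where it overlapped TATAA. The letters AGGTCA, searched on both strands and found in 14.0% of windows, were present 179 bases before Ckmt1. Of the 7 genes, 6 had an entry in the table of start regions, Ckmt1 with a second start that held none of these motifs, and Slc6a8 had none. Gatm held 1 E-box and 1 AGGTCA, and Gamt held none of the motifs. A match of letters does not show that a factor binds there.

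On the assembly GRCm39, Ckm lies at chr7:19138701-19157965 (plus strand), Ckb at chr12:111635789-111639008 (minus), Ckmt1 at chr2:121188195-121195706 (plus) and Ckmt2 at chr13:92001503-92025608 (minus). Gatm lies at chr2:122424948-122441799 (minus), Gamt at chr10:80089960-80096860 (minus) and Slc6a8 at chrX:72716728-72726108 (plus). All 7 are protein-coding genes. Ckb shares 17.5% of its 31-base sequence words with other genes, chiefly the pseudogenes Gm12892 and Ckb-ps1, Gamt shares 10.8% (chiefly with its neighbour Ndufs7) and Ckmt1 shares 7.36% (with Strc and Ckmt2), so a part of their counts could be placed on another gene. Ckm, Ckmt2 and Slc6a8 share 0.46% to 1.49%, and Gatm shares none.

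Total estimated counts were 7268626 in Heart WT 1 and 26067147 to 31619776 in the other libraries, so Heart WT 1 gave the least precise values. Hmox2 was 37.3 to 42.5 CPM (counts scaled by TMM within the tissue) in hearts of Hmox2+/+ mice and 7.53 to 8.90 CPM in hearts of Hmox2-/- mice. In ECs it was 63.9 to 76.2 and 12.6 to 14.8 CPM, so that all 13 libraries matched their labels, although 73.4% of its sequence words are shared with other genes such as Cdip1. The share of counts from mitochondrially encoded genes was 37.6% to 44.3% in hearts of Hmox2+/+ mice and 22.5% to 27.2% in hearts of Hmox2-/- mice. EC KO 2 and EC KO 3 had a summed level of 4 Y-linked genes of 2.51 and 2.85 TPM, against 42.2 to 78.4 TPM in the other 11 libraries. No EC library of Hmox2+/+ mice had such a low level, so sex and genotype cannot be fully told apart in ECs. The EC libraries held the 10 endothelial markers at a summed 940 to 1809 TPM in Hmox2+/+ and 2023 to 2224 TPM in Hmox2-/- mice, against 164 to 299 TPM in hearts, and also the 7 white adipocyte markers at 4629 to 7092 TPM and the 7 brown adipocyte markers at 2727 to 4757 TPM. The 6 erythroid markers summed to 3982 to 9631 TPM in the EC libraries. They are called EC libraries here by their label, with fat cell and erythroid markers above the endothelial ones. The 8 smooth muscle markers (2007 to 3225 TPM) also stood above the endothelial ones in the EC libraries of Hmox2+/+ mice. In such bulk samples, fewer cells of a type and less RNA per cell cannot be told apart.

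In hearts of Hmox2+/+ mice, creatine kinase RNA was almost wholly of the muscle pair. On the TPM scale, which allows levels of different genes to be compared, Ckm made up 56.8% ± 2.11 (SD, n = 4) and Ckmt2 42.5% ± 2.08 of the TPM of the 4 creatine kinases. Ckb made up 0.614% ± 0.034 and Ckmt1 at most 0.018% in any of these libraries. Hearts of Hmox2-/- mice had the same order and close shares, with 56.8% ± 4.63 (n = 3) for Ckm, 42.6% ± 4.63 for Ckmt2 and 0.609% ± 0.024 for Ckb. The ratio of Ckm to Ckmt2 TPM ranged from 1.19 to 1.46 in hearts of Hmox2+/+ mice, which overlapped the range of 1.15 to 1.66 in Hmox2-/- mice. The composition of creatine kinase RNA in heart tissue thus stayed within its spread between libraries while the total differed. The summed TPM of the 4 genes was 2375, 2670, 2015 and 2084 in Heart WT 1 to 4 and 4354, 4177 and 3909 in Heart KO 1 to 3, but on this scale the median of all genes also stood 0.22 higher (log2) in Hmox2-/- hearts.

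ECs had another makeup. In the EC libraries of Hmox2+/+ mice Ckb was the leading creatine kinase, at 83.6%, 51.5% and 69.1% of creatine kinase TPM in EC WT 1 to 3, followed by Ckm at 14.1%, 31.1% and 27.7%. Ckmt2 made up 1.39%, 14.9% and 1.86%, so EC WT 2 stood apart from the other two. Ckmt1 made up 0.915%, 2.50% and 1.40%. In the EC libraries of Hmox2-/- mice Ckb was 99.6%, 98.9% and 99.5% of creatine kinase TPM, and Ckm was 0.282%, 0.571% and 0.410%. The summed TPM of the 4 genes was 72.7, 61.4 and 91.2 in EC WT 1 to 3 and 54.8, 29.2 and 46.6 in EC KO 1 to 3, with no overlap.

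**Figure D1:**
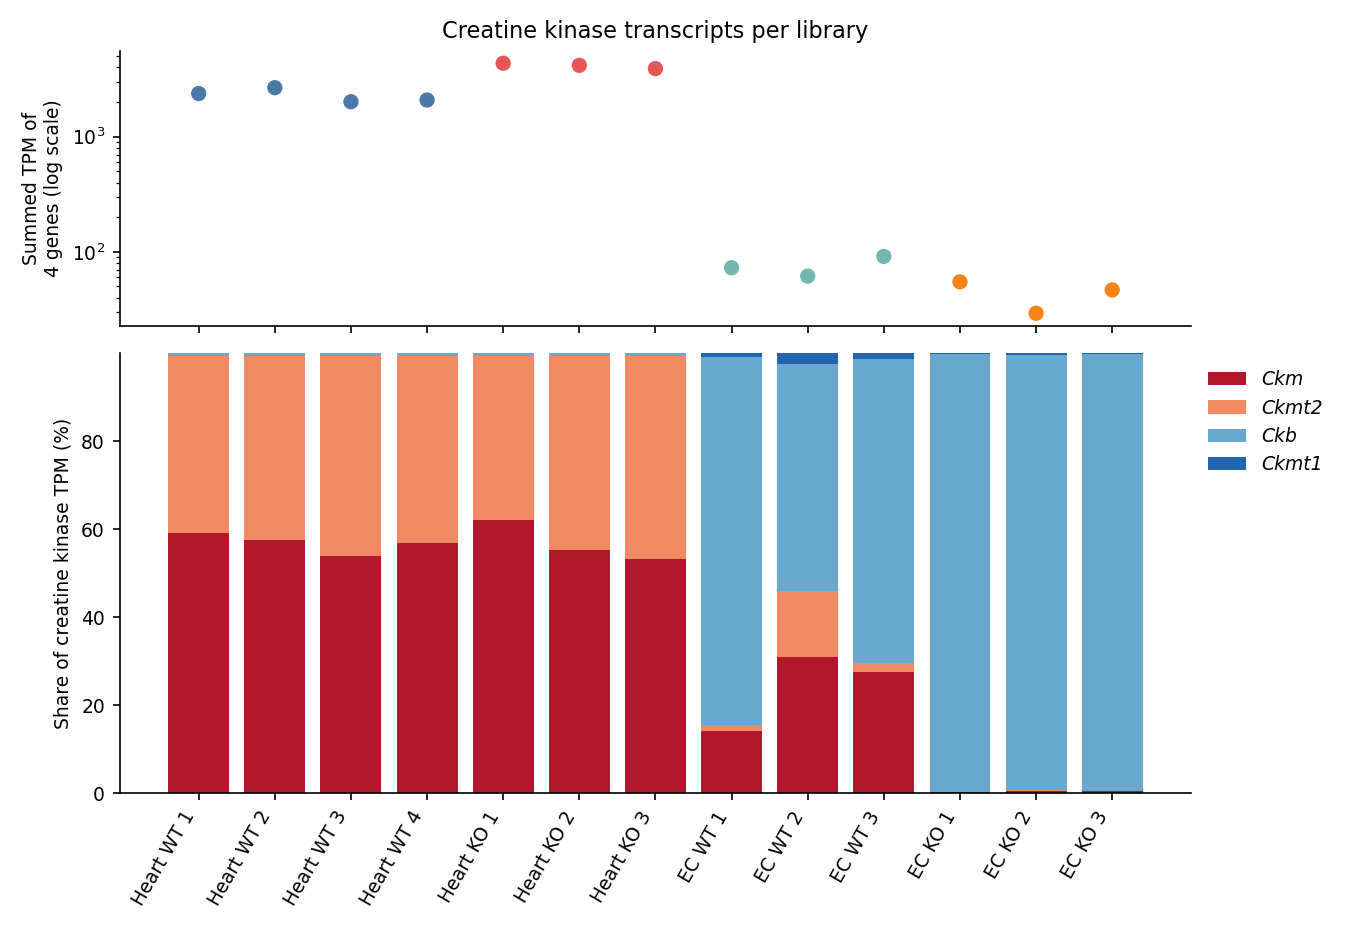
Creatine kinase RNA in each library. The upper panel plots the summed TPM of Ckm, Ckmt2, Ckb and Ckmt1 (log scale) and the lower panel the share of each gene in that sum (%), with 1 column per library. The 7 heart libraries are split between Ckm and Ckmt2, whereas Ckb fills 51.5% to 83.6% of the column in EC WT libraries and at least 98.9% in EC KO libraries.

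The cytosolic muscle kinase Ckm was higher in hearts of Hmox2-/- mice and lower in their ECs. On the CPM scale within heart tissue it was 1618, 1638, 1433 and 1566 CPM in Heart WT 1 to 4 and 2633, 2211 and 1836 CPM in Heart KO 1 to 3. All 3 Hmox2-/- hearts lay above all 4 Hmox2+/+ hearts, and Heart KO 3 was the nearest to them. The fitted log2 fold change was 0.51 (SE 0.12). In ECs Ckm was 13.3, 18.2 and 24.8 CPM in EC WT 1 to 3, from 360 to 803 counts, and 0.354, 0.460 and 0.331 CPM in EC KO 1 to 3, from 9 to 12 counts. The EC groups were far apart, with a log2 fold change of -5.61 (SE 0.32) and a ratio of summed counts of 50.2 (95% exact interval 35.3 to 74.2, which covers counting error only). In the EC libraries of Hmox2-/- mice 83.9% of the little Ckm TPM was placed on transcript Ckm-203, against 11.9% in those of Hmox2+/+ mice, where Ckm-201 held 69.3%.

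Ckmt2, the sarcomeric mitochondrial kinase, took the same course. In heart tissue it was 1359, 1430, 1435 and 1319 CPM in Heart WT 1 to 4 and 1984, 2156 and 1938 CPM in Heart KO 1 to 3. The groups did not overlap, and the log2 fold change was 0.55 (SE 0.09). In ECs Ckmt2 had 41, 315 and 61 counts in EC WT 1 to 3 (1.51, 10.5 and 1.88 CPM), and 0, 1 and 0 counts in EC KO 1 to 3. EC WT 2 held most of the counts of its group. With 417 counts against 1, the ratio scaled to library size was 380 (95% exact interval 67.9 to 15059), and a count of 0 in EC KO 1 and EC KO 3 allows up to 0.106 and 0.110 CPM (3 counts).

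Ckmt1, the ubiquitous mitochondrial kinase, was low in every library. Its estimated counts were 0, 8, 7 and 16 in Heart WT 1 to 4 and 40, 29 and 21 in Heart KO 1 to 3, which gave 0, 0.277, 0.267 and 0.566 CPM and 1.18, 0.877 and 0.628 CPM. The Hmox2-/- hearts were all higher, but Heart KO 3 was close to Heart WT 4. In Heart WT 1, the shallowest library, a count of 0 allows up to 0.446 CPM, which is still under the lowest Hmox2-/- heart. The log2 fold change was 1.42 (SE 0.49), or 1.26 without Heart WT 1, and the ratio of summed counts was 2.60 (95% exact interval 1.71 to 4.05). In ECs the order was turned around, with 20, 54 and 47 counts in EC WT 1 to 3 (0.738, 1.80 and 1.45 CPM) and 1, 3 and 1 counts in EC KO 1 to 3 (0.035, 0.115 and 0.037 CPM). Every Hmox2+/+ EC library lay above every Hmox2-/- EC library, and the ratio of the summed 121 and 5 counts was 22.1 (9.20 to 69.2). The same coding transcript held 71.3% to 93.6% of the Ckmt1 TPM in the groups other than ECs of Hmox2-/- mice, where 71.4% of the TPM, from 5 counts in all, was placed on a retained-intron transcript. The difference between the log2 fold changes in heart tissue and ECs was 5.82 (SE 0.91) for Ckmt1, 6.15 (SE 0.35) for Ckm and 8.60 (SE 1.24) for Ckmt2, given without a test because the genes were chosen for it and, for Ckmt1 and Ckmt2, resting on 5 and 1 counts in ECs of Hmox2-/- mice.

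Ckb, the brain-type cytosolic kinase, was higher in hearts of Hmox2-/- mice and overlapped between genotypes in ECs. It was 19.0, 22.0, 19.9 and 19.0 CPM in Heart WT 1 to 4 and 31.6, 30.8 and 24.5 CPM in Heart KO 1 to 3. The heart groups did not overlap, and the log2 fold change was 0.53 (SE 0.11). In ECs Ckb was 90.5, 35.9 and 69.3 CPM in EC WT 1 to 3 and 63.7, 40.3 and 54.4 CPM in EC KO 1 to 3. EC WT 2 was below all 3 libraries of Hmox2-/- mice, and the log2 fold change of -0.30 (SE 0.32) was within its error. Without EC WT 1 it was 0.0066.

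**Figure D2:**
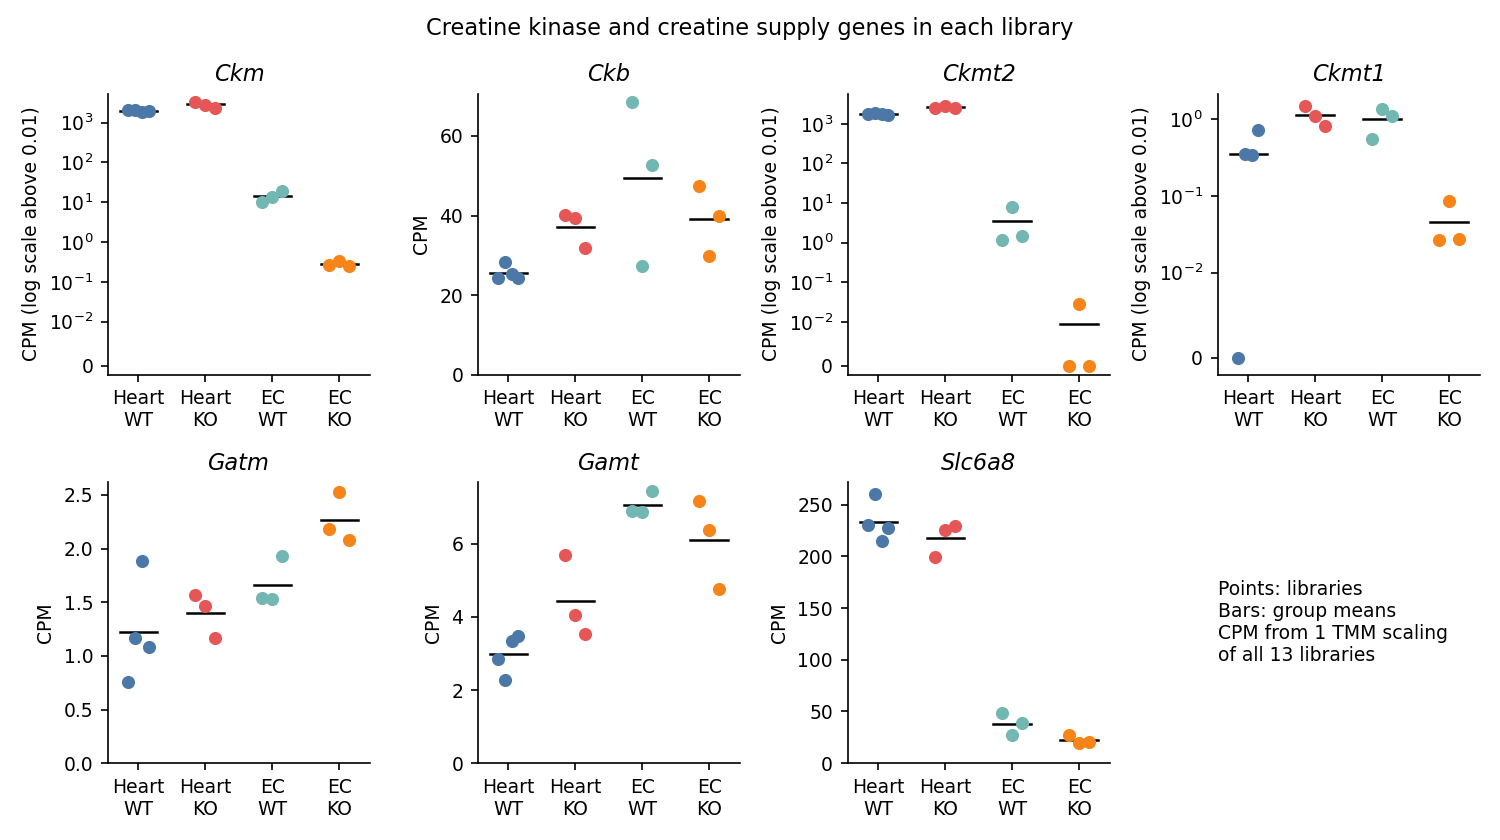
The 7 genes in all 13 libraries, in CPM from 1 TMM scaling over both tissues. Points are libraries and bars are group means, and the axes of Ckm, Ckmt2 and Ckmt1 are logarithmic above 0.01 CPM. Ckm and Ckmt2 separate heart from EC libraries and then WT from KO within ECs. The group mean of Ckmt1 is highest in Heart KO and EC WT and lowest in EC KO, although Heart WT 4 (0.724 CPM) lies above EC WT 1 (0.559 CPM). Heart WT 1 is drawn at 0 CPM for Ckmt1. Its count of 0 allows up to 0.568 CPM (3 counts), so it cannot be ordered against the EC KO libraries.

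The genes of creatine supply had fitted log2 fold changes of -0.10 to 0.56 in heart tissue and -0.73 to 0.48 in ECs. Gatm, which makes guanidinoacetate, was 0.595, 0.900, 1.49 and 0.850 CPM in Heart WT 1 to 4 and 1.23, 1.15 and 0.898 CPM in Heart KO 1 to 3, with overlapping groups and a log2 fold change of 0.12 (SE 0.32). In ECs it was 2.03, 2.01 and 2.53 CPM in EC WT 1 to 3 and 2.94, 3.41 and 2.83 CPM in EC KO 1 to 3. These EC groups did not overlap, with 55 to 89 counts per library, and the log2 fold change was 0.48 (SE 0.26). With an offset for transcript length and GC content it was 0.24. The share of all genes whose genotype groups did not overlap was not counted in either tissue.

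Gamt, which methylates guanidinoacetate to creatine, was 2.23, 1.77, 2.63 and 2.73 CPM in Heart WT 1 to 4 and 4.49, 3.18 and 2.72 CPM in Heart KO 1 to 3. Heart KO 3 lay just under Heart WT 4, and the log2 fold change was 0.56 (SE 0.24). In ECs Gamt was 9.12, 9.02 and 9.76 CPM in EC WT 1 to 3 and 9.63, 8.58 and 6.47 CPM in EC KO 1 to 3, which overlapped, with a log2 fold change of -0.18 (SE 0.19).

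The transporter Slc6a8 was 181, 201, 169 and 178 CPM in Heart WT 1 to 4 and 157, 177 and 177 CPM in Heart KO 1 to 3. The heart groups overlapped, with a log2 fold change of -0.10 (SE 0.10). In ECs Slc6a8 was 63.9, 35.1 and 51.3 CPM in EC WT 1 to 3 and 36.0, 26.1 and 28.4 CPM in EC KO 1 to 3. EC KO 1 lay just above EC WT 2, the only overlap, and the log2 fold change was -0.73 (SE 0.23).

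All 7 passed the filter on low counts in both tissues, but Ckm, Ckmt1 and Ckmt2 in ECs did so through the Hmox2+/+ libraries, and Ckmt1 in heart tissue chiefly through the Hmox2-/- libraries, so that each had to differ to be kept. When an offset for transcript length and GC content was added, the heart log2 fold changes were 0.20 for Ckm, 0.27 for Ckb, 0.30 for Ckmt2 and 0.20 for Gamt.

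**Figure D3:**
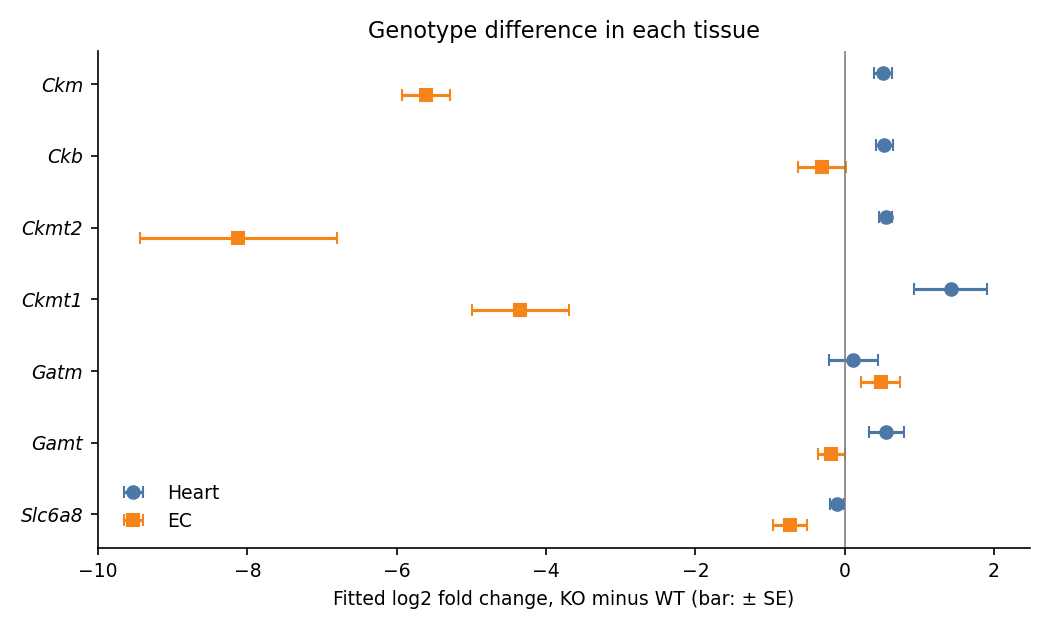
Fitted log2 fold changes of the 7 genes, Hmox2-/- (KO) minus Hmox2+/+ (WT), in heart tissue (circles) and ECs (squares), with bars of 1 SE. The 4 creatine kinases lie at 0.51 to 1.42 in heart tissue, and Ckm, Ckmt2 and Ckmt1 lie far below 0 in ECs, where the fitted values of Ckmt2 and Ckmt1 rest on 1 and 5 counts in the KO libraries and are not measured folds.

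Markers of muscle cells moved with Ckm, Ckmt2 and Ckmt1 in ECs. The 15 cardiomyocyte markers summed to 139, 783 and 298 TPM in EC WT 1 to 3 and to 12.0, 14.1 and 16.3 TPM in EC KO 1 to 3, and the mean of all 15 was lower in the latter. Of these markers, Myl2 (23.5, 275 and 79.0 TPM in EC WT 1 to 3) and Myh6 (8.37, 28.5 and 26.2 TPM) were at 0.139 to 0.764 TPM and 0.0068 to 0.111 TPM in EC KO libraries, and 8 of the 15 were under 1 TPM in all 3 of them. The 9 fast skeletal muscle markers summed to 65.2, 23.6 and 104 TPM in EC WT 1 to 3 and to 4.70, 6.81 and 2.68 TPM in EC KO 1 to 3, all 9 with a lower mean. Among the Hmox2+/+ EC libraries, Ckmt2 was highest in EC WT 2 (9.16 TPM), which also had the most cardiomyocyte marker RNA, and Ckm was highest in EC WT 3 (25.2 TPM), which had the most fast skeletal marker RNA. EC WT 1 and EC WT 2 went the other way, as EC WT 1 had more fast skeletal marker RNA but less Ckm (10.2 against 19.1 TPM). Ckm stood at 7.35%, 2.44% and 8.47% of the summed cardiomyocyte markers in EC WT 1 to 3, against 2.93% to 3.96% over the 7 hearts. Ckmt2 stood at 0.729%, 1.17% and 0.570% of them, against 2.19% to 3.05% in hearts. The ratio of Ckm to Ckmt2 TPM was 10.1, 2.08 and 14.9 in EC WT 1 to 3. The part of muscle cell RNA in the EC differences of the 3 genes was not tested.

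**Figure D4:**
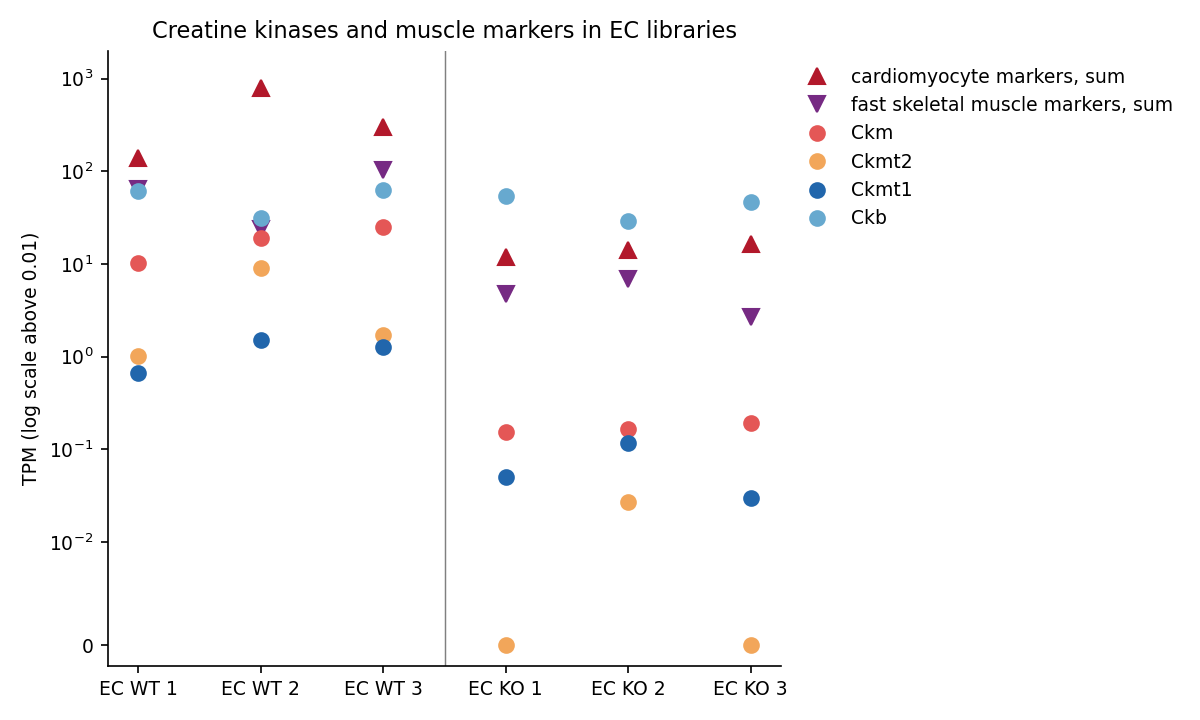
Creatine kinases (circles) beside summed cardiomyocyte markers (upward triangles) and summed fast skeletal muscle markers (downward triangles) in the 6 EC libraries, in TPM on an axis that is logarithmic above 0.01. Ckm, Ckmt2 and Ckmt1 and both marker sums are higher in the 3 EC WT libraries than in the 3 EC KO libraries, whereas Ckb (28.9 to 63.0 TPM) overlaps between them.

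Other cell types also differed between the EC groups. The 8 smooth muscle markers summed to 2007 to 3225 TPM in EC WT libraries, 2298 TPM in EC KO 1 and 607 and 656 TPM in EC KO 2 and EC KO 3, the 2 libraries with few Y-linked counts. Ckb was likewise highest in EC KO 1 among the Hmox2-/- libraries, at 54.6 TPM against 28.9 and 46.4 TPM, and EC WT 2 was the lowest Hmox2+/+ library for both Ckb (31.7 TPM) and these markers. Between the genotypes EC KO 3 went the other way. It had less of these markers than EC WT 2 (656 against 2007 TPM) but more Ckb (46.4 against 31.7 TPM). The 5 fibroblast markers (873 to 1761 TPM in EC WT and 2153 to 3003 TPM in EC KO libraries, all 5 with a higher mean) and the 6 macrophage markers (284 to 536 and 562 to 1082 TPM, all 6 higher) separated the EC groups, as did the endothelial sum, with 8 of 10 higher. The part of these cell types in the EC values of the 7 genes was not tested. With EC KO 1 as the only Hmox2-/- library, the log2 fold changes were -5.07 for Ckmt1 and -10.1 for Ckmt2 (EC KO 1 held 1 and 0 counts), and that of Gamt turned to 0.055. In hearts, the cardiomyocyte markers summed to 37083 to 47752 TPM in Hmox2+/+ mice and 59278 to 68165 TPM in Hmox2-/- mice, with 12 of 15 higher. As a share of that sum, Ckm ranged from 2.93% to 3.21% in the former and from 3.51% to 3.96% in the latter, without overlap, and Ckmt2 was 2.19% to 2.46% and 2.39% to 3.05%, with overlap. Other marker sums were also higher in every Hmox2-/- heart than in every Hmox2+/+ heart. All these heart sums are in TPM, a scale on which the median of all genes also stood 0.22 higher (log2) in Hmox2-/- hearts. The 6 macrophage markers went from 78.7 to 116 TPM up to 200 to 328 TPM, and the 6 erythroid markers from 341 to 779 TPM up to 2416 to 3506 TPM, all 6 of each list with a higher mean. The endothelial (164 to 236 and 271 to 299 TPM, 10 of 10 higher), smooth muscle (135 to 173 and 195 to 249 TPM, 7 of 8) and fibroblast sums (175 to 214 and 259 to 312 TPM, 3 of 5) also did not overlap. The 7 brown adipocyte markers summed to 1325 to 1677 TPM in Hmox2+/+ hearts and to 5033, 3751 and 2935 TPM in Heart KO 1 to 3, with 5 of 7 higher. Ckb had this order in these 3 hearts in CPM (31.6, 30.8 and 24.5) but not in TPM (26.2, 26.5 and 23.0). Ucp1, the uncoupling protein that defines brown fat, had 0 counts in all 3 of them. The list also holds Cpt1b and Cox7a1, and the part of each gene in the sum is not given here. The sum is therefore not read as an amount of brown fat in hearts. The part of these cell types and of the amount of cardiomyocyte RNA in the heart differences of the 7 genes was not tested.

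The difference between tissues in Hmox2+/+ mice is another contrast than the genotype differences on which the genes were selected. The opposite courses of Ckm, Ckmt2 and Ckmt1 bear on it, however, so these genes are given without a test. The others were tested with edgeR's quasi-likelihood test over all 13 libraries, with adjusted p-values over 15938 genes and levels in CPM from 1 scaling of both tissues. In Hmox2+/+ mice, Ckm (1999 ± 129 CPM in 4 hearts against 14.3 ± 4.43 CPM in 3 EC libraries, log2 fold change 7.13, SE 0.27) and Ckmt2 (1771 ± 75.8 against 3.54 ± 3.89 CPM, 8.97, SE 0.65) were higher in the heart. The transporter Slc6a8 was also higher there, at 233 ± 19.2 against 38.1 ± 10.8 CPM (2.62, SE 0.19, adjusted p = 1.81e-08). Gamt (2.98 ± 0.54 against 7.07 ± 0.31 CPM, -1.24, SE 0.22, adjusted p = 1.53e-04) and Ckb (25.5 ± 1.97 against 49.5 ± 20.7 CPM, -0.95, SE 0.24, adjusted p = 0.00259) were lower in the heart, although Ckb of EC WT 2 (27.3 CPM) lay within the heart range. Gatm (1.22 ± 0.48 against 1.66 ± 0.23 CPM, -0.38, SE 0.29, adjusted p = 0.260) did not pass, and Ckmt1 was at 0.355 ± 0.30 against 1.01 ± 0.42 CPM (-1.30, SE 0.55). Of the genes tested, Slc6a8 thus passed as higher in the heart and Gamt and Ckb as lower. Of all genes, 32.1% passed as higher and 33.7% as lower.

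In Hmox2-/- mice the tissue difference also holds the genotype differences on which the genes were selected, so the levels are described without a test. Ckm was 2848 ± 478 CPM in 3 hearts and 0.283 ± 0.052 CPM in 3 EC libraries. Ckmt2 was 2594 ± 135 CPM in hearts, with 203603 counts in all, against 1 count in all in ECs. Ckmt1 had 90 counts in hearts and 5 in ECs. Slc6a8 was 218 ± 16.2 against 22.3 ± 3.94 CPM (log2 fold change 3.29, SE 0.20). Ckb (37.1 ± 4.54 against 39.1 ± 8.74 CPM, -0.08, SE 0.25) was within its error between the tissues. Gatm (1.40 ± 0.21 against 2.27 ± 0.24 CPM, -0.69, SE 0.30) and Gamt (4.43 ± 1.13 against 6.10 ± 1.23 CPM, -0.46, SE 0.22) had lower means in the heart. The median log2 difference of all genes between hearts and ECs of Hmox2-/- mice was -0.11, and -0.35 with upper-quartile normalization.

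Ordered by TPM in hearts of Hmox2+/+ mice, the levels were Ckm (1302 ± 203 TPM), Ckmt2 (969 ± 104), Slc6a8 (54.7 ± 9.85), Ckb (14.0 ± 2.14), Gamt (2.63 ± 0.31), Gatm (0.388 ± 0.13) and Ckmt1 (0.234 ± 0.19). Ckm and Ckmt2 overlapped between libraries, as did Gatm and Ckmt1, and the other neighbours in this order did not. Within each of these hearts, however, Ckm stood above Ckmt2 (ratio 1.19 to 1.46). In ECs of Hmox2+/+ mice the order was Ckb (51.8 ± 17.5 TPM), Ckm (18.2 ± 7.54), Slc6a8 (17.1 ± 3.32), Gamt (12.3 ± 2.21), Ckmt2 (3.96 ± 4.52), Ckmt1 (1.16 ± 0.45) and Gatm (1.06 ± 0.27). There Ckm, Slc6a8 and Gamt overlapped with each other, as did Ckmt2, Ckmt1 and Gatm, and only Ckb and the step from Gamt to Ckmt2 stood clear of their neighbours. Within each of these EC libraries Ckmt2 stood above Ckmt1. In ECs of Hmox2-/- mice Slc6a8 (11.2 ± 2.58 TPM) and Gamt (10.8 ± 2.44 TPM) followed Ckb (43.3 ± 13.1 TPM), and the muscle kinase Ckm stood at 0.171 ± 0.019 TPM, under Gatm at 1.44 ± 0.037 TPM.

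The genes whose level was most like each member across libraries were taken from 13351 genes kept in both tissues, by Pearson's r of log2(CPM + 1) over the 13 libraries after the mean of each tissue was subtracted. These correlations are a description, and the libraries share genotype and cell makeup. Ckm was most like Ank1 (r = 0.985), the muscle phosphoglycerate mutase Pgam2 (0.983) and the muscle enolase Eno3 (0.979). Ckmt2 was most like cardiac troponin I, Tnni3 (0.971), the muscle LIM protein gene Csrp3 (0.970) and the fatty acid desaturase Scd1 (0.966). For Ckmt1 the 5 nearest were Vtcn1 (0.944), Pitpnb (0.944), Chst4 (0.938), Znhit2 (0.935) and Nr1h2 (0.930). Of these, Chst4 went from 0.644 to 2.24 CPM in hearts and from 2.87 to 0.061 CPM in ECs between Hmox2+/+ and Hmox2-/- means, and Vtcn1 from 0.180 to 0.667 and from 1.12 to 0.192 CPM, both at levels as low as those of Ckmt1. Slc6a8 was most like the calcium channel subunit Cacnb2 (0.973), Pbxip1 (0.971) and the dystrobrevin Dtna (0.970). Gamt was most like Jkamp (0.955), Tbca (0.952) and Cog8 (0.940). Ckb (Slc47a1, Utp11 and Plp2, 0.892 to 0.921) and Gatm (Cyp2j9, Cstpp1 and Zfp105, 0.888 to 0.897) had less close matches. Among the members themselves, Ckm, Ckmt1 and Ckmt2 had r of 0.794 to 0.809 with each other, while Ckb had r of -0.07 with Ckmt2 and 0.29 with Ckm.

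The other genes of the pathway were 41 genes in 8 lists, of which 32 were tested in heart tissue and 33 in ECs, with edgeR's quasi-likelihood test and adjusted p-values over all genes. In heart tissue 14 of the 32 passed, 8 higher and 6 lower in Hmox2-/- mice, where 17.2% of all 13816 genes passed as higher and 16.2% as lower, with a median log2 fold change of 0.11 against -0.0091 for all genes. In ECs 7 of the 33 passed, 1 higher and 6 lower, where 10% of all 15301 genes passed as higher and 8.06% as lower, with a median of -0.18 against -0.017 for all genes. The EC count ranged from 0 to 14 over the alternative settings, and it was 2 when EC WT 1, EC KO 1, EC KO 2 or EC KO 3 was left out and 11 without EC WT 3. Of the calls named next, Ass1 and Myom2 in ECs were lost in 1 of 16 alternatives, and Slc25a4 in 12, Prkab1 in 9, Vdac1 in 7, Myom1 in 6 and Prkaa2 in 5. In hearts Ak1 was lost in 9, Prkaa2 in 8, Ak6 and Myom1 in 6 and Prkag1 in 5, and the others in 0 or 1. Without Heart WT 1 the heart count was 10, and Ak1, Ak6, Myom1 and Prkaa2 did not pass.

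The adenine nucleotide translocators exchange ATP and ADP across the inner mitochondrial membrane beside mitochondrial creatine kinase. Of the 6 translocators and outer membrane channels, 2 passed as higher in Hmox2-/- hearts. Slc25a4, the muscle translocator, rose from 3584 ± 41.6 to 5185 ± 807 CPM (log2 fold change 0.53, edgeR adjusted p = 0.00500), and Slc25a5 rose from 138 ± 12.6 to 305 ± 27.0 CPM (1.14, edgeR adjusted p = 3.83e-05), with 47.0% of its sequence words shared with pseudogenes. In ECs 2 passed as lower. Slc25a4 fell from 372 ± 41.4 to 257 ± 21.3 CPM (-0.53, edgeR adjusted p = 0.0425) and the channel Vdac1 from 228 ± 25.3 to 157 ± 9.06 CPM (-0.53, edgeR adjusted p = 0.0322).

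Adenylate kinases buffer ATP by a route parallel to creatine kinase. Of 8, 4 were tested in heart tissue, and 2 passed as higher and 1 as lower. Ak1, the muscle cytosolic form, rose from 492 ± 25.5 to 629 ± 102 CPM (0.35, edgeR adjusted p = 0.0361), and Ak6 by 0.41 (edgeR adjusted p = 0.0293), with 67.5% of its words shared chiefly with Taf9. Ak4, a matrix form, fell from 56.1 ± 2.95 to 40.9 ± 4.61 CPM (-0.46, edgeR adjusted p = 0.00691). In ECs 0 of the 6 tested passed, with Ak3 nearest (243 ± 45.9 and 164 ± 14.1 CPM, -0.56, edgeR adjusted p = 0.0544) after Ak9 (0.123 ± 0.096 and 0.541 ± 0.068 CPM, edgeR adjusted p = 0.0515). Of the 3 AMP deaminases, 2 were tested in each tissue and 0 passed, and the muscle form Ampd1 had at most 1 count in any heart.

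Arginine and glycine are the substrates of Gatm. Of the 8 genes that supply them, 6 were tested in each tissue. In hearts the argininosuccinate synthase Ass1 rose from 2.39 ± 0.74 to 4.38 ± 0.56 CPM (0.96, edgeR adjusted p = 0.00815) and the cytosolic serine hydroxymethyltransferase Shmt1 from 6.07 ± 0.71 to 12.4 ± 0.63 CPM (1.01, edgeR adjusted p = 3.76e-04). The cationic amino acid transporters fell, Slc7a1 from 96.3 ± 4.16 to 46.3 ± 6.26 CPM (-1.06, edgeR adjusted p = 7.17e-05) and Slc7a2 from 4.81 ± 0.88 to 2.48 ± 0.31 CPM (-0.99, edgeR adjusted p = 0.00349). In ECs Ass1 rose from 34.4 ± 5.13 to 64.8 ± 5.74 CPM (0.91, edgeR adjusted p = 0.00817) and was the only gene of the 8 lists to pass as higher there. It shares 42.0% of its words with Gm5424, so the source of its counts is uncertain. Slc7a2 had 13.4 ± 4.49 and 23.4 ± 5.15 CPM in ECs (0.81, edgeR adjusted p = 0.0776).

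For the methyl donor of Gamt, 5 of 6 genes were tested in each tissue, and 0 passed in either. Mat1a, the liver form of methionine adenosyltransferase, had at most 2 counts in any heart and 4 in any EC library. Slc16a12, another creatine transporter, did not pass in heart tissue (3.53 ± 0.66 and 2.95 ± 0.64 CPM, edgeR adjusted p = 0.320) or in ECs (0.532 ± 0.29 and 0.444 ± 0.18 CPM, edgeR adjusted p = 0.781).

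The subunits of AMP-activated kinase, the sensor of falling ATP, were mixed. In hearts 7 were tested, and the beta subunit Prkab1 (0.50, edgeR adjusted p = 0.00362) and the gamma subunit Prkag1 (0.34, edgeR adjusted p = 0.0235) rose while the alpha subunit Prkaa2 fell (-0.42, edgeR adjusted p = 0.0312, but 0.19 with the offset for length and GC content). In ECs 6 were tested, and Prkaa2 (-0.90, edgeR adjusted p = 0.0213) and Prkab1 (-0.48, edgeR adjusted p = 0.0386) fell. The RNA of the M-band proteins that bind muscle creatine kinase fell in both tissues on the CPM scale. Myom2 went from 1744 ± 163 to 1088 ± 200 CPM in hearts (-0.68, edgeR adjusted p = 0.00422) and from 3.83 ± 1.30 to 0.425 ± 0.17 CPM in ECs (-3.15, edgeR adjusted p = 0.00607). Myom1 went from 1100 ± 114 to 785 ± 140 CPM in hearts (-0.49, edgeR adjusted p = 0.0187) and from 58.9 ± 24.3 to 22.6 ± 5.64 CPM in ECs (-1.38, edgeR adjusted p = 0.0322). In heart tissue the anchor RNAs thus fell in CPM where Ckm stood higher, and in ECs they fell beside the muscle markers given above. In TPM the heart groups overlapped for both genes. The means of Hmox2+/+ and Hmox2-/- hearts were 201 and 197 TPM for Myom1 and 339 and 290 TPM for Myom2. On that scale the median of all genes stood 0.22 higher (log2) in Hmox2-/- hearts.

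**Figure D5:**
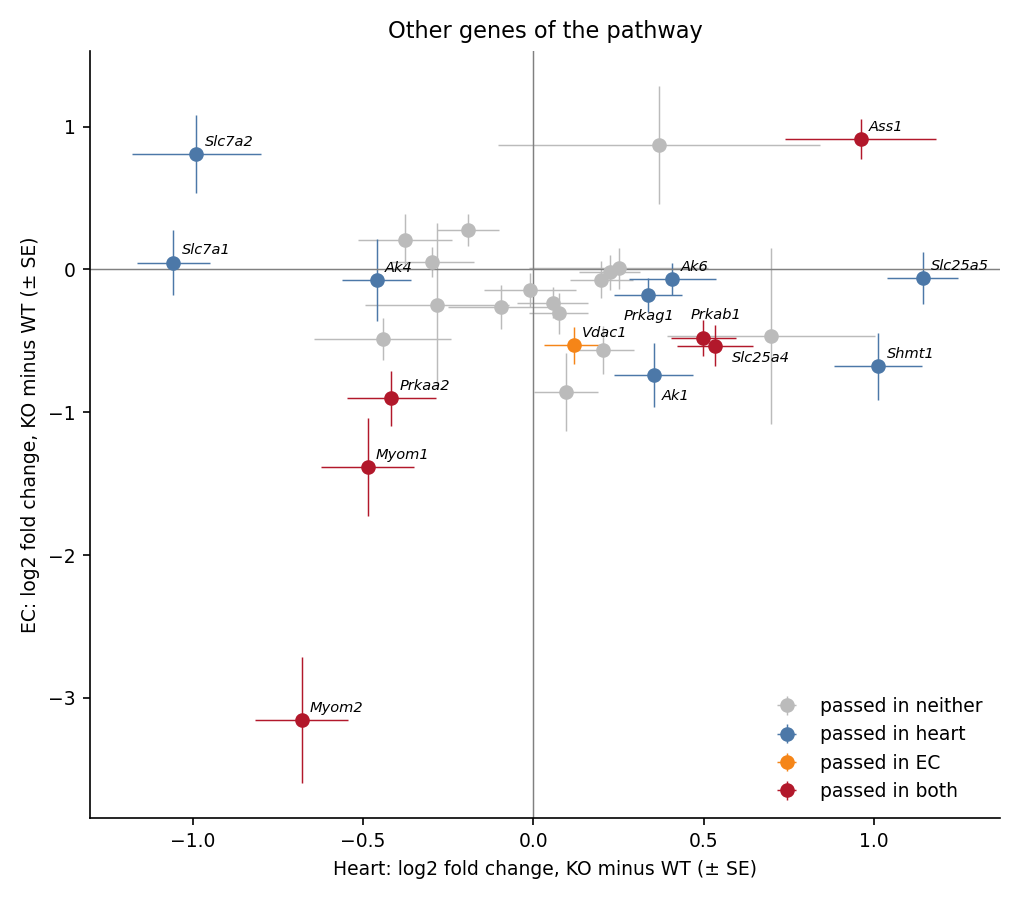
Log2 fold changes, Hmox2-/- (KO) minus Hmox2+/+ (WT), of the 31 other pathway genes tested in both tissues, in heart tissue (x axis) and ECs (y axis) with bars of 1 SE, colored by the tissue in which the gene passed an adjusted p of 0.05. The 6 genes that passed in both are Ass1, Myom1, Myom2, Prkaa2, Prkab1 and Slc25a4, of which Prkab1 and Slc25a4 lie on opposite sides of 0.

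A tissue by genotype term over all 13 libraries, chosen after the data had been seen, tested whether the genotype effect of these genes differed between tissues. It passed for 15 of 36 pathway genes, 11 with a more positive change in heart tissue and 4 with a more negative one, where 28.8% of all 15938 genes passed in either direction. The difference was 1.11 (SE 0.23, edgeR adjusted p = 0.00392) for Slc25a4, 1.02 (SE 0.15, edgeR adjusted p = 5.73e-04) for Prkab1 and 1.74 (SE 0.27, edgeR adjusted p = 6.75e-04) for Shmt1. For Slc7a2 it was -1.76 (SE 0.34, edgeR adjusted p = 0.00241), and for Ass1 it did not pass (0.11, SE 0.25, edgeR adjusted p = 0.782).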

How the data were processed

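RNA was measured in 13 libraries from aortic ECs and hearts of Hmox2+/+ and Hmox2-/- mice, prepared with oligo-dT selection and strand marking. The authors pseudoaligned 1 library at a time with Kallisto 0.44.0 at default settings and deposited estimated counts and TPM per transcript without scaling one library to another. GENCODE M32 is named in the methods, and the submitters' processing notes list mm10 and GRCh38.p13. Default settings do not use the strand. The 7 genes, the lists and the tests were chosen with earlier results of these data known.

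Of 118489 transcripts, 115140 (97.2%) were matched to GENCODE M39 by identifier without version, and the rest held 0.755% to 1.01% of counts and were left out. The estimated counts of a gene's transcripts were added and rounded. After filterByExpr (minimum count 10) and TMM scaling, genes were tested by edgeR's quasi-likelihood test (edgeR 4.0.16, R 4.3.3), within each tissue for genotype and over all 13 libraries for tissue, with Benjamini-Hochberg adjustment and a threshold of 0.05. The biological coefficient of variation was 0.149 in hearts and 0.241 in ECs. When 200 genes were given a simulated log2 change of 2, 191 (hearts, 13816 genes) and 157 (ECs, 15301 genes) were called, with 12 and 8 unchanged genes. Apart from Myom2 in ECs, the pathway genes that passed by genotype had smaller changes, for which the simulation gives no rate. TPM was used to compare genes. Named were the 7 genes, up to 4 genes per list and tissue that passed, genes near 0, and the 3 genes (5 for Ckmt1) most like each member. A few genes that did not pass (Ak3, Ak9, Slc7a2 in ECs) were named after their values were seen. A few genes of these pathways are not reported or counted here. Shared sequence was counted in words of 31 bases. Intervals (95%, exact Clopper-Pearson) and the floor of 3 counts cover counting error only. Replicates are separate samples by label. The study states 3 mice per genotype and tissue, while the labels give 4 Hmox2+/+ hearts, and whether each library came from its own animal is not given, so p-values measure only the spread between these samples. Alternatives were DESeq2 1.42.0, upper-quartile normalization, no filter, length-scaled TPM counts, the replicate number as a block, other sets of libraries in the fit, mitochondrially encoded genes left out, an offset for length and GC content, protein-coding transcripts only, log2(TPM + 1) values and each library left out.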

Additional observations from a re-analysis of the deposited data

Results flagged for a closer look

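For Ckm, Ckb, Ckmt1 and Ckmt2 every Hmox2-/- heart lay above the Hmox2+/+ mean while every Hmox2-/- EC library lay below it. The share of all genes that did so was not counted. For Ckb the EC groups overlapped, with EC WT 2 (35.9 CPM) below all 3 Hmox2-/- libraries. Its EC log2 fold change of -0.30 (SE 0.32) was within its error. The difference between the log2 fold changes (heart minus EC) was 6.15 for Ckm, 0.87 for Ckb, 5.82 for Ckmt1 and 8.60 for Ckmt2. These differences were not tested, because the genes were chosen on these contrasts.

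Among the other pathway genes, the genotype effect differed between tissues by the edgeR interaction term for 15. The difference (heart minus EC, log2) was 1.13 for Ak1, 0.81 for Ak3, 0.52 for Ak6 and -3.26 for Ak9. It was 1.11 for Slc25a4, 1.24 for Slc25a5 and 0.69 for Vdac1. For the substrate and methyl donor genes it was -1.06 for Slc7a1, -1.76 for Slc7a2, 1.74 for Shmt1 and -0.42 for Mat2a. It was 1.02 for Prkab1, 0.55 for Prkag1, 0.99 for Prkag2 and 2.51 for Myom2. Ak9 had at most 16 counts in any library, and Slc25a5 and Mat2a share 47.0% and 20.2% of their sequence words with other genes.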

How the results depend on the processing

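Among recomputed fold changes of the 7 genes by genotype and counts of called genes, 276 stayed near the reported value, 32 moved and 4 changed sign. In hearts, the offset for length and GC content gave log2 fold changes of 0.20 (Ckm), 0.27 (Ckb), 0.30 (Ckmt2) and 0.20 (Gamt). On the log2(TPM + 1) scale, where the median of all genes was 0.22, they were 0.86 (Ckm), 0.81 (Ckb), 0.64 (Ckmt1), 0.86 (Ckmt2) and, with a changed sign, 0.17 (Slc6a8). In ECs this scale gave -3.95 (Ckm), -0.996 (Ckmt1), -1.92 (Ckmt2) and 0.25 (Gatm), length-scaled TPM counts gave -6.64 (Ckm) and -3.85 (Ckmt1), protein-coding transcripts gave -5.48 (Ckmt1), and the offset gave 0.24 (Gatm) and 0.13 (Gamt, sign changed). Only the 4 EC libraries with Y-linked counts gave 0 called pathway genes, and -5.07 (Ckmt1), -10.1 (Ckmt2) and 0.055 (Gamt, sign changed). DESeq2 and the fit of all libraries called 13 and 14 pathway genes in ECs. The cause of these moves was not tested.

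With each library left out, the heart fold change of Ckmt1 was 1.18 to 1.92, and in ECs that of Ckb was -0.60 to 0.0066 (without EC WT 1), of Ckmt1 -5.05 to -4.06 and of Ckmt2 -10.1 to -6.67. Called pathway genes were 2 to 11 in ECs and 10 to 18 in hearts. Ckb between Hmox2-/- hearts and ECs ranged from -0.23 to 0.086, the latter without EC KO 1, and Prkaa2 in hearts turned to 0.19 with the offset. Of the pathway genes called in hearts, Ak4, Ass1, Myom2, Prkab1, Shmt1, Slc25a4, Slc25a5 and Slc7a1 passed in all 16 alternatives, while Ak1 did not pass in 9 and Prkaa2 in 8. In ECs, Ass1 (adjusted p = 0.222) and Myom2 (0.193) did not pass with the Y-linked-count libraries alone and passed in the other 15. Between the tissues of Hmox2+/+ mice, the calls of Slc6a8, Ckb and Gamt held in all 21 alternatives, and Gatm passed in 1.

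Replicate numbers are shared between groups, but the deviations of same-numbered libraries from their group means had correlations of -0.070 to 0.098 in hearts, 0.057 to 0.223 in ECs, 0.0061 to 0.102 between hearts and ECs of Hmox2+/+ mice and 0.180, -0.032 and 0.235 between those of Hmox2-/- mice (numbers 1 to 3). No comparison had all of them over 0.1, so the numbers were not taken to pair libraries, and whether a heart and an EC library share a mouse is not given in the sources used here. A fit with the replicate block gave 9 called pathway genes in hearts and 7 in ECs. It moved Ckmt1 in hearts to 1.84. Heart WT 1, with 7268626 counts, limits the precision of Ckmt1 and Gatm.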
